A study of Mus musculus with 12 samples.

Results

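The ABC transporter genes of the mouse liver were examined in the KK and C57BL/6J strains. The members were all genes whose symbol starts with Abc, a subfamily letter from a to g and a number, and whose probe set carries exactly 1 gene symbol in the platform annotation. This gave 48 genes among 21212 probe sets, 1 probe set each: 16 of subfamily Abca, 9 of Abcb, 10 of Abcc, 3 of Abcd, 1 of Abce, 3 of Abcf and 6 of Abcg. All 48 were found by their Entrez gene number in the RefSeq annotation of the mouse build GRCm38.p6, under the same symbols, on 17 chromosomes.

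The study measured liver RNA of 12 mice, 3 females and 3 males of each strain, with 1 Affymetrix whole-transcript array per mouse. KK is an inbred strain prone to obesity and insulin resistance, labelled KK/HIJ in 1 field and KK/J in another, and C57BL/6J is the common reference strain. All mice were 8 weeks old, were fed chow, carried no treatment or transgene, and were alone in their cages for 3 days and without food for 4 hours before the large liver lobe was taken after perfusion. Each array is a separate mouse, so the spread within a group is that between mice, and n is 3 mice per group throughout.

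The hepatocyte carries ABC transporters on each of its surfaces and organelles. Those of the canalicular membrane pump bile salts, phospholipid, sterols and drug conjugates into bile, and those of the sinusoidal membrane return conjugates to blood. Others load lipid onto lipoproteins, bring fatty acids into peroxisomes or serve mitochondria and lysosomes, while the Abce and Abcf proteins have no membrane part and act in translation. Many of the canalicular genes are known targets of nuclear receptors, among them the bile acid receptor FXR, the oxysterol receptor LXR and the xenobiotic receptors CAR and PXR.

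The sequences before the start sites of the canalicular genes with the largest strain differences are shown first, from RefSeq with the build GRCm38.p6. Abcg5 and Abcg8, whose proteins form 1 sterol pump, lie head to head on chromosome 17, and only 109 bases separate the start site of Abcg5 at 84683011, read on the minus strand, from that of Abcg8 at 84683121, read on the plus strand. The whole stretch between these starts, chr17:84683012-84683120, is printed on the plus strand because it is upstream of both genes, and its capitals mark the reverse complement of AGATAA, the motif that GATA factors bind:
Abcg5 and Abcg8 shared stretch: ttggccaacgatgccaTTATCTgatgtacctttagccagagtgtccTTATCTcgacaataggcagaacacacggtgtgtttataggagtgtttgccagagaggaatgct
The motif was chosen after the sequence was seen. It occurs at bases 17 and 47, and 3.98% of all 32851 promoter windows hold it within a stretch of the same length and place. A TATA box motif, TATAAA, lies on the other strand at base 79, against 5.9% of all windows of that length. Abcg8 also has an annotated start inside Abcg5. The second sequence comes from Abcb11, the bile salt export pump gene on chromosome 2, which is read on the minus strand from 69342616. It covers chr2:69342633-69342712 and is printed in the direction of transcription, with capitals on the reverse complement of AGGTCA, the hexamer that many nuclear receptors bind:
Abcb11 upstream stretch: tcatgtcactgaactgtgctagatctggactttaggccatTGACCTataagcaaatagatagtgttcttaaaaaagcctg
The hexamer lies 51 to 56 bases before the start site. Among all windows, 4.77% hold it on either strand within the same 80 bases, and 14% within the 250 bases before the start.

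Promoter windows of 38 of the 48 genes were in the table. The AGGTCA hexamer was found in 5 of these 38 genes (13.2%), namely Abcb6, Abcb11, Abcc2, Abcc10 and Abcg2, which is close to the 14% of all windows. Further motifs were searched on both strands: the NR5A2 motif, which puts TCA before the hexamer and so overlaps it, the HNF4A motif, which puts CAAAG before TCCA, and the FXR type of inverted repeat, which is the hexamer and its reverse complement with 1 base between. The NR5A2 motif was found in 1 member, Abcc10, against 0.387% of all windows. The HNF4A motif (0.384% of all windows) and the inverted repeat (0.00609%) were found in 0 of 38. Only exact matches counted, and at such low shares 0 of 38 says little. The Abcb11 stretch holds aggccatTGACCT, which is 1 letter away from the searched repeat. This was read from the printed letters, and matches within 1 letter were not counted over all windows. A match describes the letters in this window and no more. Genes without a window are Abca6, Abcb8, Abcc1, Abcc3, Abcc6, Abcc8, Abcd2, Abcd4, Abcg1 and Abcg4.

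Genome position is another shared feature. In all 15 members lie next to another member, in 10 neighbouring pairs. These are the row Abca8b, Abca8a, Abca9, Abca6 and Abca5 on chromosome 11, the row Abcb1a, Abcb1b and Abcb4 on chromosome 5, the row Abca14, Abca15 and Abca16 on chromosome 7, and the pairs Abca17 with Abca3 and Abcg5 with Abcg8 on chromosome 17. Abca17 and Abca3 overlap by their annotation. Abcb1a with Abcb1b and Abca8a with Abca8b are close paralogs, and their values are uncertain as to the gene.

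Values are the log2 expression values that the authors deposited, so a difference of 1 is a doubling. Medians of the arrays ranged from 5.90 to 6.03 and interquartile ranges from 2.64 to 2.97. Across probe sets, mice of 1 group correlated at 0.992 to 0.996, and mice of unlike groups at 0.975 to 0.993. The mean of 8 hepatocyte markers, among them Alb and Ttr, lay between 12.92 and 13.05 on every array. The level of a transcript that is not there was read from 3 Y-linked genes in the 6 females, which spanned 3.79 to 4.66. Of the 48 members, 41 lay above 4.66 in every mouse. Abca12, Abca13, Abca15, Abca16 and Abcb5 lay at or below it in all 12 mice, and Abca4 and Abcb1b in 11 of 12. Abca4, Abca12 and Abca13 are best known from retina, skin and other epithelia.

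**Figure D1:**
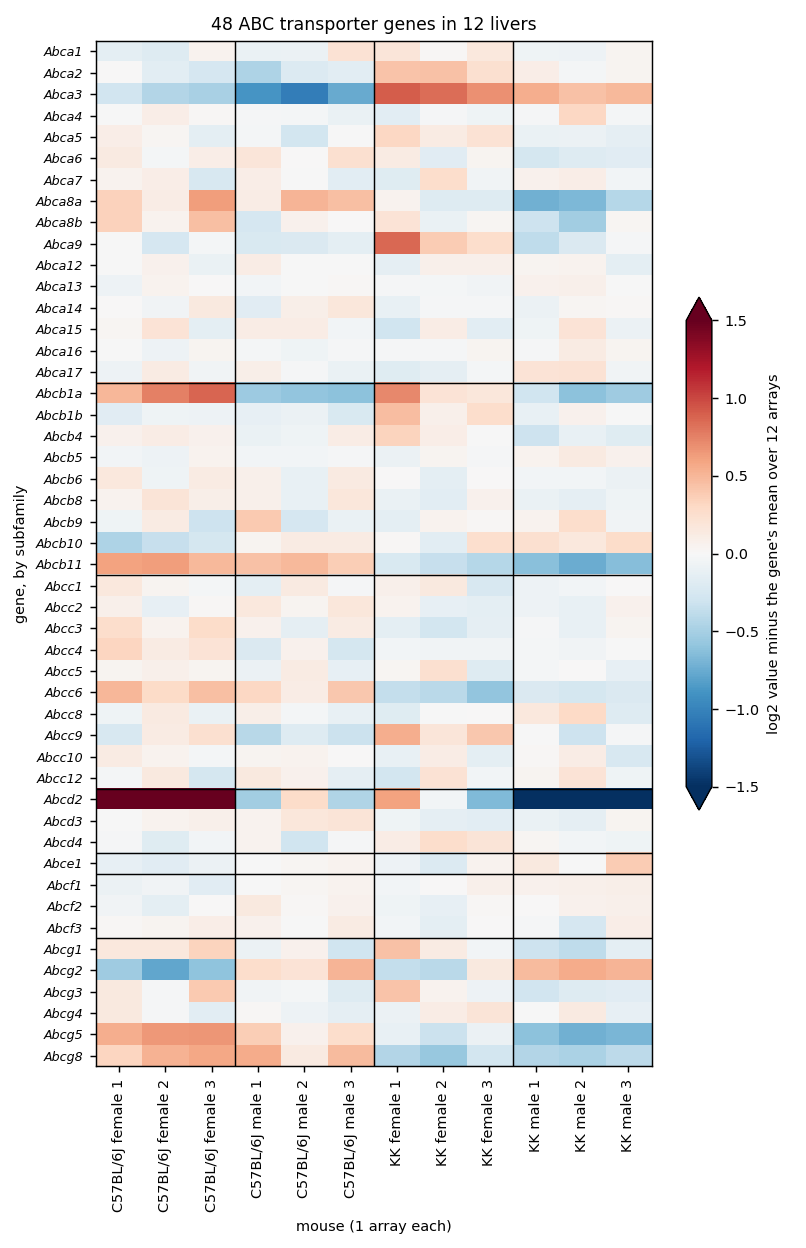
Each cell shows the log2 value of 1 of the 48 genes (rows, by subfamily) in 1 mouse (columns) minus that gene's mean over the 12 arrays, with red above and blue below the mean and the colour ending at 1.5 either way. Abcd2 spans the widest range, from 4.98 to 9.93, Abca3 is red in all KK mice, and Abcb11, Abcg5 and Abcg8 are blue in all of them.

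The comparison of the strains over both sexes asks which transporters set KK liver apart. Abcd2, Abcb11, Abcg8, Abcg5, Abca8a and Abcc6 were lower in KK, and Abca3, a phospholipid transporter, was higher, each by at least 1.5-fold. Sequence differences between the strains under the probes were not tested as a part of these or the other strain differences. By limma 13 of 48 members were called at an adjusted p under 0.05 (27.1%), 4 higher and 9 lower, where 11.7% of all probe sets were called. Fitted on only the probe sets above the median mean, 4 members were higher and 9 lower, and 22.7% of those probe sets were called. Abcb1b, with a mean of 4.34, was not in that fit, and Abcg2 was called higher in it (limma adjusted p = 0.0313). Not all 48 members were in it, so the 27.1% is not the share to set beside 22.7%. The median difference of the 48 members was -0.02 against 0.01 over all probe sets. The median size of the difference, whatever its sign, was 0.108 against 0.068. Differences of at least 1.5-fold were found for 7 of the 13 and of at least 2-fold for 3, Abcd2, Abca3 and Abcb11. The split of 4 higher and 9 lower was 5 and 7 after quantile or loess normalization of the deposited values, and 7 and 10 with the interquartile range of the arrays as a covariate. Without C57BL/6J female 1 or without KK male 3 the higher calls numbered 2.

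Among the 8 exporters of the canalicular membrane 3 fell and 1 rose in KK (50%, against the 11.7% of all probe sets). The 1 that rose, Abcb1b, lay at or below the background level in 11 of 12 mice. The lists were chosen with earlier results of these data known. Among only the probe sets above the median mean 22.7% were called, which also stands beside the shares over both sexes of the lists that follow. Abcb11 moves conjugated bile salts into bile. Its values were 12.40, 12.43 and 12.29 in C57BL/6J females, 12.24, 12.28 and 12.17 in C57BL/6J males, 11.57, 11.46 and 11.37 in KK females and 11.17, 11.06 and 11.15 in KK males. Every KK mouse lay below every C57BL/6J mouse, by more than the spread within any group. Abcb11 fell by 1.01 (SE 0.05, limma adjusted p = 9.36e-08), which is 2.01-fold, with -0.91 in females and -1.10 in males.

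Abcg5 is the partner of Abcg8 in the pump that returns cholesterol and plant sterols to bile. It stood at 10.39, 10.50 and 10.51 in C57BL/6J females, 10.22, 9.91 and 10.12 in C57BL/6J males, 9.75, 9.53 and 9.76 in KK females and 9.24, 9.13 and 9.17 in KK males. The strains did not overlap, and KK males were the lowest group. Abcg5 fell by 0.85 over both sexes (SE 0.06, limma adjusted p = 2.88e-06).

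Abcg8, across the short stretch printed above, moved with strain in nearly the same degree. Females of C57BL/6J had 9.53, 9.73 and 9.79, males 9.77, 9.35 and 9.68, while KK females had 8.77, 8.64 and 8.94 and KK males 8.77, 8.73 and 8.82. Again all KK mice lay below all C57BL/6J mice. Abcg8 fell by 0.86 (SE 0.08, limma adjusted p = 1.98e-05), with -0.90 in females and -0.83 in males, beside -0.79 and -0.91 for Abcg5.

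The other canalicular genes showed smaller strain differences or none that passed. Abcb4 flips phosphatidylcholine into bile and is the neighbour of the Abcb1 genes. It stood at 10.81, 10.86 and 10.82 in C57BL/6J females, 10.65, 10.69 and 10.86 in C57BL/6J males, 11.08, 10.85 and 10.75 in KK females and 10.45, 10.64 and 10.57 in KK males. The strains overlapped, and the difference was -0.06 with a 95% interval of -0.20 to 0.08. Abcc2, the canalicular pump for glucuronide and glutathione conjugates, gave 11.61, 11.41 and 11.55 in C57BL/6J females and 11.69, 11.58 and 11.70 in C57BL/6J males. In KK it gave 11.58, 11.41 and 11.39 in females and 11.46, 11.42 and 11.59 in males, so that the strains overlapped again. Its difference of -0.11 had a 95% interval of -0.24 to 0.01. Both intervals leave out a change as large as that of Abcb11 or Abcg5.

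Abcg2, the breast cancer resistance protein that exports urate, sulfated steroids and drugs, did not pass between strains as deposited. Its difference was 0.31 (SE 0.09, limma adjusted p = 0.0527), and it was called under other settings, at 0.0141 after quantile and 0.0167 after loess normalization and at 0.0222 with the replicate number as a block. Abcb1a, a P-glycoprotein gene, differed by -0.12 (SE 0.10, adjusted p = 0.589). The canalicular gene that rose was its paralog Abcb1b, by 0.25 (SE 0.07, limma adjusted p = 0.0278). The values of Abcb1b were close to the level of the Y-linked genes in females: 4.18, 4.28 and 4.26 in C57BL/6J females, 4.22, 4.26 and 4.11 in C57BL/6J males, 4.81, 4.42 and 4.61 in KK females and 4.23, 4.41 and 4.33 in KK males. Only KK female 1 lay above 4.66, and the adjusted p was 0.0509 to 0.0695 without KK female 3, male 2 or male 3 or, of C57BL/6J, female 1 or male 3.

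Of 6 sinusoidal and other plasma membrane exporters of subfamily Abcc, 2 fell and 0 rose (33.3%, against 11.7%), and the call of 1 of them, Abcc3, was lost without any of several arrays. Abcc6 is a basolateral transporter of the hepatocyte that governs the release of ATP and so of the mineralization inhibitor pyrophosphate. Its values were 9.55, 9.35 and 9.51 in C57BL/6J females, 9.36, 9.17 and 9.46 in C57BL/6J males, 8.70, 8.65 and 8.47 in KK females and 8.84, 8.79 and 8.84 in KK males. No KK mouse reached a C57BL/6J mouse. Abcc6 fell by 0.68 (SE 0.06, 1.61-fold, limma adjusted p = 1.98e-05).

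Abcc3, which passes bile acid and bilirubin conjugates to blood, fell by 0.22 (SE 0.06, adjusted p = 0.04). This call was lost (adjusted p 0.0535 to 0.0945) without any KK female, KK male 1 or male 2 or, of C57BL/6J, female 1 or 3 or male 1 or 3. Abcc4, which effluxes cyclic nucleotides and bile acids with glutathione, differed by -0.08, and Abcc1, Abcc5 and Abcc10 by -0.02 to -0.08, and none of these passed.

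The lipid transporters of subfamily Abca moved in both directions. Abca3 loads phospholipid into lamellar bodies of the lung and is also transcribed elsewhere. It stood at 8.67, 8.51 and 8.47 in C57BL/6J females, 8.07, 7.92 and 8.20 in C57BL/6J males, 9.87, 9.79 and 9.64 in KK females and 9.50, 9.40 and 9.44 in KK males. All KK mice lay above all C57BL/6J mice, and it was the largest increase among the members. Abca3 rose by 1.30 (SE 0.06, 2.47-fold, limma adjusted p = 6.28e-08), with 1.22 in females and 1.38 in males. Abca2, a lysosomal sterol and lipid transporter best known from brain, rose by 0.41 (SE 0.07, adjusted p = 0.00196). Its group means were 7.83 and 7.70 in C57BL/6J females and males and 8.34 and 8.01 in KK females and males. The other 3 intracellular lipid transporters of this list, Abca4, Abca12 and Abca13, lay near the background and did not pass.

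Of the 5 tandem genes of chromosome 11, 2 fell over both sexes and 0 rose (40%, against 11.7% of all probe sets). The call of 1 of the 2, Abca6, was lost in 11 of 20 alternatives. Abca8a, whose product is an exporter of organic anions, stood at 10.30, 10.06 and 10.58 in C57BL/6J females, 10.06, 10.45 and 10.40 in C57BL/6J males, 10.00, 9.76 and 9.75 in KK females and 9.23, 9.27 and 9.52 in KK males. The strains did not overlap, and KK males were lowest. Abca8a fell by 0.72 (SE 0.10, limma adjusted p = 0.000481).

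The rest of the row gave smaller differences. Abca8b differed by -0.22 (SE 0.10, adjusted p = 0.239) and Abca9 by 0.29 (SE 0.10, adjusted p = 0.0837). Abca6 fell by 0.21 (SE 0.06, adjusted p = 0.0492). The call of Abca6 was lost after quantile (0.142) and loess normalization (0.0651), and at 0.0638 to 0.114 when any 1 array was left out, except KK female 1 and, of C57BL/6J, female 2 and male 2. Abca5, a lysosomal gene at the end of the row, differed by 0.11 (adjusted p = 0.353).

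None of the 4 exporters that pass cholesterol and phospholipid to apolipoproteins and HDL was called between strains by limma, and 0 had an unadjusted p under 0.05. Abca1, which makes nascent HDL, differed by 0.09 with a 95% interval of -0.06 to 0.24. Abca7 differed by 0.05, Abcg1 by -0.11 and Abcg4 by 0.07.

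Subfamily Abcd imports fatty acids into peroxisomes, apart from Abcd4, which serves cobalamin export from lysosomes. Abcd2, a transporter of very long chain and polyunsaturated acyl-CoA, had the widest range of all members. Females of C57BL/6J stood at 9.44, 9.89 and 9.93, males of C57BL/6J at 6.90, 7.70 and 6.96, KK females at 8.02, 7.37 and 6.75 and KK males at 5.60, 5.50 and 4.98. Within each sex every KK mouse lay below every C57BL/6J mouse, while KK females and C57BL/6J males overlapped. Abcd2 fell by 2.10 over both sexes (SE 0.21, 4.29-fold, limma adjusted p = 3.92e-05), with -2.37 in females and -1.83 in males. Abcd3, the abundant peroxisomal membrane protein that imports branched acyl-CoA and bile acid intermediates, fell by 0.18 (SE 0.05, adjusted p = 0.0318). That call was lost after quantile (0.0593) and loess normalization (0.0785) and, at 0.0636 to 0.0772, without KK female 2 or 3, KK male 1 or 2 or, of C57BL/6J, female 2 or 3 or male 2 or 3. Abcd4 differed by 0.17 (adjusted p = 0.128).

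Of 3 mitochondrial transporters Abcb10 rose in KK, by 0.26 (SE 0.07, limma adjusted p = 0.0241). Abcb10 exports biliverdin from mitochondria and is needed for haem synthesis in red cell precursors. Its group means were 7.24 (SD 0.10) in C57BL/6J females, 7.69 (SD 0.04) in C57BL/6J males, 7.63 (SD 0.20) in KK females and 7.82 (SD 0.06) in KK males. Without KK male 1 or male 3 or, of C57BL/6J, female 1 or male 1, the adjusted p was 0.0514 to 0.0643. Of 4 erythroid markers measured 3 were called higher in KK (75%, against 11.7% of all probe sets), with Alas2, the erythroid haem synthesis gene, at 1.19. The mean of these markers was 6.83 to 6.97 in C57BL/6J females, 7.27 to 7.33 in C57BL/6J males, 7.45 to 7.50 in KK females and 7.73 to 7.76 in KK males, and none of the 4 was at the background level in any mouse. Their part in the difference of Abcb10 was not tested. Abcb6 differed by -0.11 and Abcb8 by -0.16, and neither passed.

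None of the remaining members was called between strains over both sexes. Abce1, which recycles ribosomes, and Abcf1, Abcf2 and Abcf3, which act in translation, differed between strains by -0.11 to 0.10, and none passed. The potassium channel subunit genes Abcc8 and Abcc9 differed by 0.02 and 0.26 (adjusted p = 0.924 and 0.108). The lysosomal peptide transporter gene Abcb9 differed by 0.07, and of the family members under other symbols Tap2, which loads peptides for MHC class I, rose by 0.19 (adjusted p = 0.0394), while Tap1 differed by -0.07. The row Abca14, Abca15 and Abca16, with Abca17, differed by -0.10 to 0.05.

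**Figure D2:**
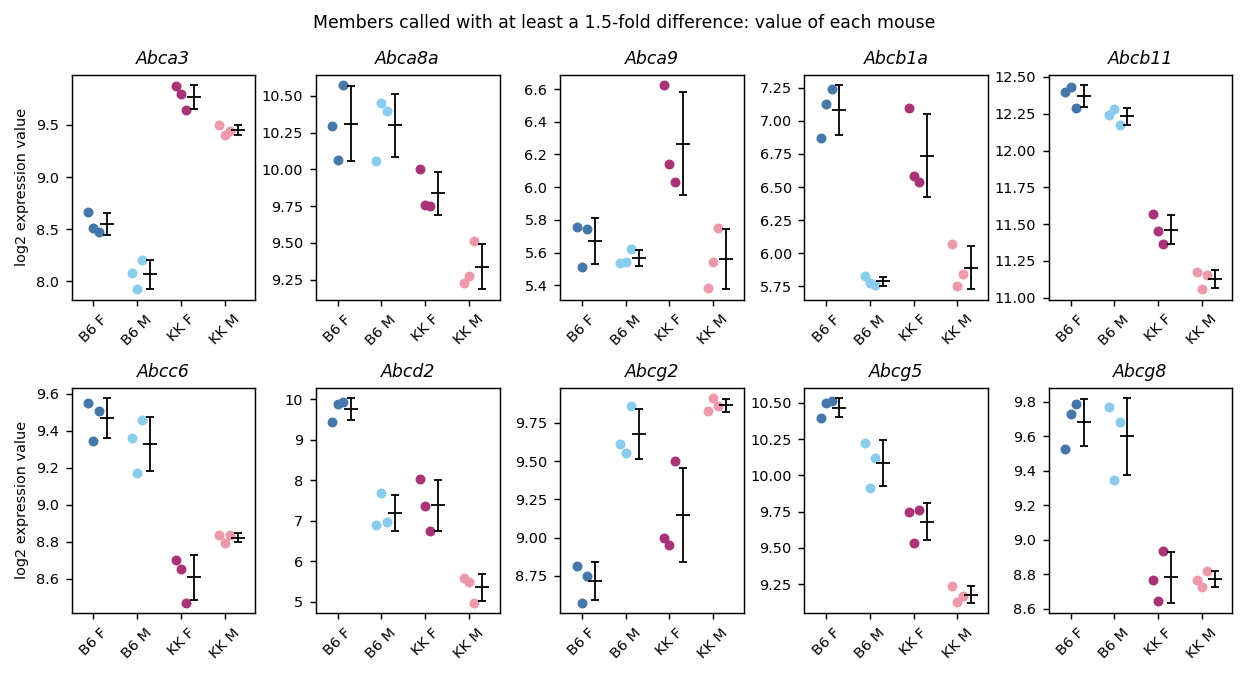
Log2 expression value of each mouse (points) for the 10 genes called in some comparison with at least a 1.5-fold difference, by strain (B6 is C57BL/6J) and sex, with the group mean and SD beside the points in black and a scale of its own in each panel. Abcb11, Abcg5, Abcg8 and Abcc6 step down and Abca3 steps up between strains, while Abcb1a and Abcg2 separate the sexes in both strains.

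In females the strain comparison called 11 of 48 members (22.9%), 5 higher and 6 lower, against 6.5% of all probe sets, and in all 11 the 3 KK females lay apart from the 3 C57BL/6J females. In males it called 8 of 48 (16.7%), 1 higher and 7 lower, against 5.15%, and again all 8 lay apart. Members without a call lay apart too, and the share over all probe sets was not counted. Lying apart therefore adds no support to the calls. Differences reached 1.5-fold for 7 of the calls in females and for 6 in males. The fit of only the probe sets above the median mean called 12.8% of them in females, with 3 members higher and 7 lower. In males it called 10.9%, with 1 member higher and 7 lower. The higher calls in females numbered 3 without C57BL/6J female 1, C57BL/6J female 3 or KK female 3, and 2 without C57BL/6J female 2 or KK female 1.

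Abcb11, Abcg5, Abcg8, Abcc6 and Abcd2 fell and Abca3 rose in each sex taken alone. Abcc6 fell by 0.86 in females (SE 0.09) and by 0.51 in males (SE 0.09). Abcc3 fell in females by 0.39 (SE 0.09, limma adjusted p = 0.0202), with 0.0752 to 0.0791 without C57BL/6J female 1 or female 3 or KK female 2, and differed in males by -0.05 (adjusted p = 0.843).

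Abca2 rose in females by 0.51 (limma adjusted p = 0.00798) and differed in males by 0.31 (adjusted p = 0.106). Abca8a fell in males by 0.96 (SE 0.14, adjusted p = 0.00169), while its -0.48 in females had an adjusted p of 0.0733. Abca6 fell in males by 0.35 (adjusted p = 0.0407). That call was lost at 0.0536 to 0.157 when any 1 array was left out, except KK female 1, KK female 2 and, of C57BL/6J, female 2 and male 2.

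Among females Abca9 rose, and so did Abcb1b and Abcb10, which were also called over both sexes. In males Abcb1b differed by 0.13 and Abcb10 by 0.13 (limma adjusted p = 0.558 and 0.549). Abca9, a gene regulated in macrophages, stood at 5.76, 5.51 and 5.74 in C57BL/6J females and at 6.63, 6.14 and 6.03 in KK females, which lay apart. In males the groups overlapped, at 5.53, 5.54 and 5.62 in C57BL/6J and 5.38, 5.55 and 5.75 in KK. Abca9 rose in females by 0.60 (SE 0.14, limma adjusted p = 0.0259), and the adjusted p was 0.0543 to 0.103 without C57BL/6J female 2 or female 3 or KK female 1. Abcb1b rose by 0.37 (adjusted p = 0.0334; 0.0733 to 0.122 without any C57BL/6J female or KK female 1 or female 3). Abcb10 rose by 0.39 (adjusted p = 0.0292; 0.0727 to 0.112 without C57BL/6J female 1 or female 2 or KK female 1 or female 3).

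**Figure D3:**
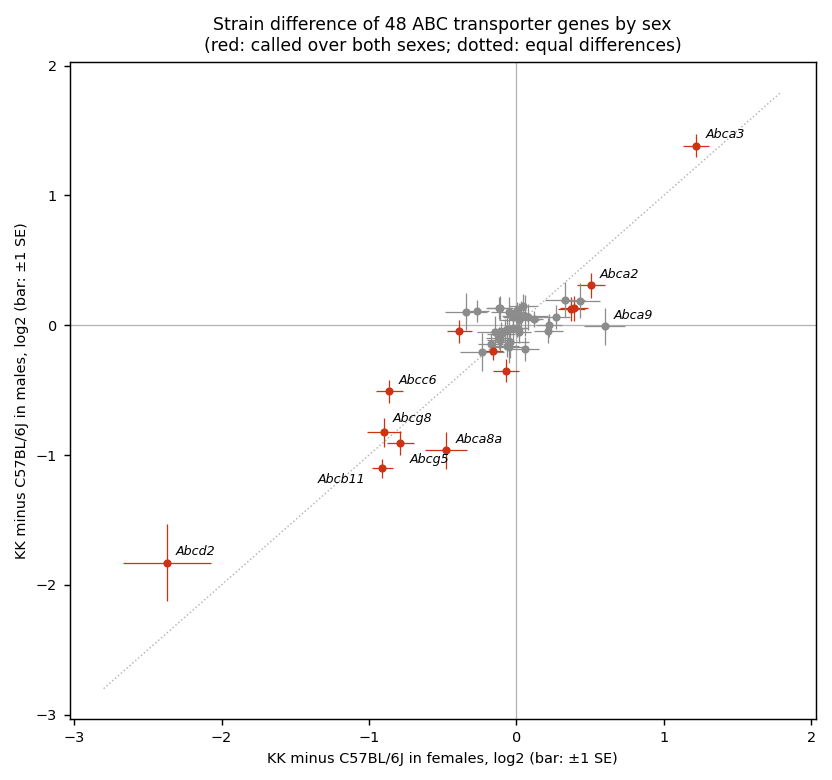
Strain difference (KK minus C57BL/6J, log2) of the 48 genes in females (horizontal axis) and males (vertical axis), with bars of 1 SE, red for the 13 called over both sexes, and a dotted line where both differences are equal. Abcd2 lies lowest, at -2.37 in females and -1.83 in males, and Abca3 highest, at 1.22 and 1.38.

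The sex comparisons ask which transporters differ between male and female liver within a strain. In C57BL/6J limma called 5 of 48 members (10.4%), 2 higher and 3 lower in males, against 1.03% of all probe sets. In KK it called 6 of 48 (12.5%), 1 higher and 5 lower, against 2.17%. In every one of these calls the 3 males lay apart from the 3 females. Members without a call lay apart too, and this was not counted over all probe sets, so that it adds no support to the sex calls. Median differences were -0.03 in C57BL/6J and -0.01 in KK, against 0.01 and 0.03 over all probe sets. The fit of only the probe sets above the median mean called 2.15% of them in C57BL/6J, with 2 members higher and 3 lower. In KK that fit called 4.67%, with 1 member higher and 4 lower. In C57BL/6J the higher calls numbered 1 without any array other than KK female 2 and KK female 3.

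The count in KK also moved with single arrays. Without KK female 1, KK female 2, KK male 1 or KK male 2 there were 0 higher calls, and the lower calls numbered 2 without KK female 1, 3 without KK male 1 and 1 without KK male 2. The split of 1 and 5 was 2 and 4 after quantile normalization and 2 and 5 with the interquartile range as a covariate. Fitted on the 6 KK arrays alone, there were 0 higher and 2 lower calls.

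Abcd2 was lower in males of both strains, and this was the largest sex difference of the family. In the values given above, the groups of each strain lay wholly apart. Males were lower by 2.57 in C57BL/6J (SE 0.30, 5.93-fold, limma adjusted p = 0.000715) and by 2.03 in KK (SE 0.30, adjusted p = 0.00427), and both differences passed under each of the 21 alternatives run.

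Abcb1a, one of the genes of the drug exporter P-glycoprotein, was also lower in males. It stood at 6.87, 7.13 and 7.24 in C57BL/6J females against 5.83, 5.78 and 5.76 in males, and at 7.10, 6.58 and 6.54 in KK females against 6.07, 5.76 and 5.85 in males. Neither strain's males overlapped its females. The difference was -1.29 in C57BL/6J (SE 0.14, 2.45-fold, limma adjusted p = 0.000471) and -0.85 in KK (SE 0.14, adjusted p = 0.0103). The KK call had an adjusted p of 0.0532 without KK male 2 and of 0.0648 when KK was fitted alone. Its paralog Abcb1b, near the background, differed by -0.04 and -0.29, and neither passed.

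Abcg2 went the other way and was the one canalicular gene higher in males. Its values were 8.82, 8.57 and 8.75 in C57BL/6J females, 9.61, 9.55 and 9.86 in C57BL/6J males, 8.995, 8.95 and 9.50 in KK females and 9.83, 9.91 and 9.86 in KK males. Males lay above females in both strains. The rise was 0.96 in C57BL/6J (SE 0.13, 1.95-fold, limma adjusted p = 0.00268) and 0.72 in KK (SE 0.13, adjusted p = 0.0178). In KK the adjusted p was 0.0517 to 0.0941 without KK female 1 or female 2 or KK male 1 or male 2, and 0.0767 in KK alone.

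The sterol pump genes, both lower in KK, were not both called between the sexes. Abcg5 fell in KK males by 0.50 (SE 0.09, limma adjusted p = 0.0137; 0.0741 without KK female 1 and 0.0642 without KK male 2), and its -0.38 in C57BL/6J did not pass (adjusted p = 0.0826). Abcg8 differed between the sexes by -0.08 in C57BL/6J (95% interval -0.33 to 0.16) and by -0.01 in KK (-0.26 to 0.24). The difference between the pair was itself not tested. Abcb11 fell in KK males by 0.34 (SE 0.07, limma adjusted p = 0.0332) and differed by -0.14 in C57BL/6J (adjusted p = 0.696). The KK call of Abcb11 had adjusted p-values of 0.0527 to 0.158 without C57BL/6J female 1, KK female 1 or female 2, or any KK male, 0.0722 after quantile normalization and 0.129 in KK alone.

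Abca3, the gene that rose in KK, was lower in males of C57BL/6J by 0.49 (SE 0.09, limma adjusted p = 0.0183) and differed by -0.32 in KK (adjusted p = 0.0967). The C57BL/6J call had adjusted p-values of 0.0556 to 0.0892 without female 1 or 2 or male 1 or 2 of C57BL/6J, and of 0.0726 in C57BL/6J alone. Abcb10 was higher in C57BL/6J males by 0.45 (SE 0.10, adjusted p = 0.0468), which became 0.0618 to 0.176 without any array other than KK female 2 and KK female 3. Alas2 was higher in males by 1.57 in C57BL/6J and by 0.74 in KK. It was the 1 gene called of the 4 erythroid markers in each strain (25%, against 1.03% and 2.17% of all probe sets). The median difference of the 4 was 0.04 in C57BL/6J and 0.31 in KK. The part of Alas2 in the difference of Abcb10 was not tested.

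Abca9 was lower in KK males than in KK females by 0.71 (SE 0.14, limma adjusted p = 0.0245), with adjusted p-values of 0.0642 to 0.107 without KK female 1, KK male 1 or KK male 2 and of 0.12 in KK alone. Of 9 Kupffer cell and macrophage markers measured, 8 were called lower in KK males (88.9%, against 2.17% of all probe sets), with Vsig4 at -1.58. Between the sexes of C57BL/6J 0 of the 9 markers were called. Their mean level was 8.39 to 9.15 in KK females and 7.51 to 7.90 in KK males, against 8.53 to 8.71 and 7.99 to 8.64 in C57BL/6J, and none of the 9 was at the background level in any mouse. In such bulk tissue fewer cells of a type and less RNA per cell cannot be told apart, and the part of these cells in the difference of Abca9 was not tested. Abcg1, the macrophage sterol exporter, differed between the sexes by -0.45 in KK (adjusted p = 0.101) and by -0.33 in C57BL/6J (adjusted p = 0.453), and did not pass.

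**Figure D4:**
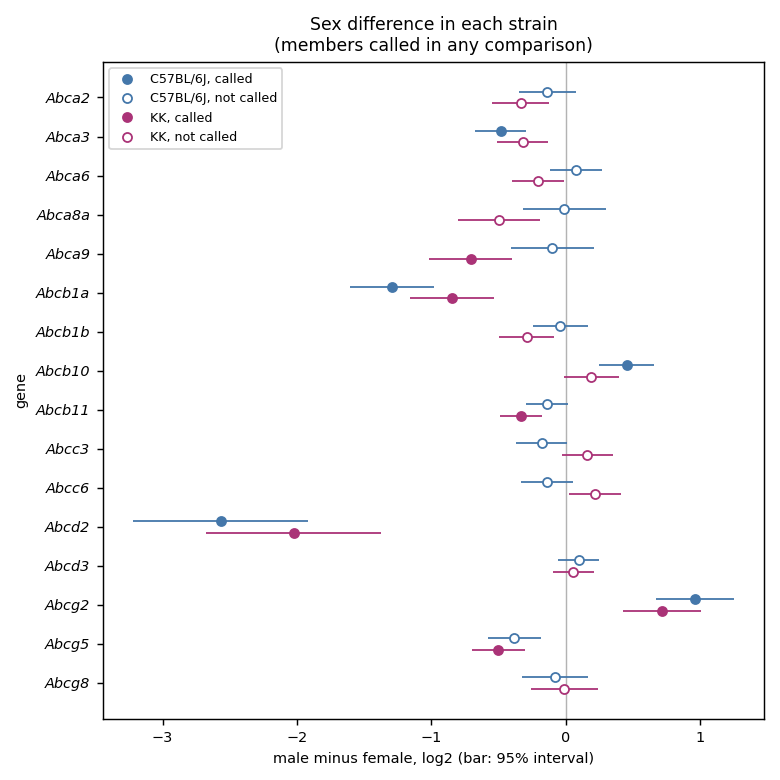
Sex difference (male minus female, log2) with its 95% interval in C57BL/6J (blue) and KK (purple) for the 16 members called in at least 1 of the 6 comparisons, with filled points for called differences. Abcd2 lies farthest to the left in both strains, at -2.57 and -2.03, and Abcg2 farthest to the right, at 0.96 and 0.72.

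The interaction of strain and sex asks whether a strain difference is unlike in males and females. By limma 0 of 48 members were called, where 0.141% of all probe sets were. An unadjusted p under 0.05 was found for 1346 of all 21212 probe sets and for 7 of the 48 members. These 7 were Abcc4, Abca9, Abcc6, Abcc3, Abca8a, Abca6 and Abcb1a. The lowest adjusted p was 0.559, for Abcc4, which differed between strains by -0.27 in females and by 0.11 in males. The strain difference of Abcd2 in males minus that in females was 0.54 with a 95% interval of -0.38 to 1.46, and that of Abca9 was -0.61 (-1.04 to -0.17). A strain or sex difference called in 1 group and not in another is therefore not shown to differ between them. Over all 6 comparisons, which share the same 12 mice, 16 members were called at least once and 32 in none.

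The genes that act with these transporters were counted as lists. Of 13 regulators measured, 2 fell in KK over both sexes and 0 rose, with a median of -0.02. This share of 15.4% was near the 11.7% of all probe sets. It was below the 22.7% called in the fit of only the probe sets above the median mean. The aryl hydrocarbon receptor gene Ahr fell by 0.53 (SE 0.07, limma adjusted p = 0.000322) and the CAR gene Nr1i3 by 0.25 (adjusted p = 0.0369). The gene of FXR, Nr1h4, which acts on Abcb11, differed by 0.24 in females and by -0.26 in males (adjusted p = 0.474 and 0.393), for a mean of -0.01, and its interaction of -0.50 did not pass (adjusted p = 0.738). That of LXR alpha, Nr1h3, which acts on Abcg5, Abcg8 and Abca1, differed by -0.13 (adjusted p = 0.135), and Ppara, which acts on the Abcd genes, by 0.08 (adjusted p = 0.624). Between the sexes Esr1, the estrogen receptor alpha gene, was lower in males by 1.34 in C57BL/6J (adjusted p = 7.5e-05) and by 1.33 in KK (adjusted p = 0.000111), and Srebf2 was lower in C57BL/6J males by 0.54 (adjusted p = 0.00718).

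Among 20 partners in uptake, trafficking and bile acid conjugation, 4 rose and 3 fell in KK (35%, against 11.7% of all probe sets). The uptake carrier gene Slco1a4 fell by 2.61 (SE 0.17) and Slco1a1 rose by 1.21 (SE 0.24) as a mean of both sexes. Group means of Slco1a1 were 10.01 in C57BL/6J and 12.08 in KK females, and 11.78 in C57BL/6J and 12.13 in KK males. The C57BL/6J females were scattered, at 10.74, 8.93 and 10.35. Slc27a5, whose product joins bile acids to CoA, fell by 0.64 (SE 0.05, limma adjusted p = 3.55e-06) and the conjugating enzyme gene Baat by 0.24 (adjusted p = 0.0403). Of the genes for trafficking and anchoring proteins, Ezr rose by 0.61 (SE 0.09, adjusted p = 0.000797), Myo5b by 0.38 (SE 0.05, adjusted p = 0.00052) and Pdzk1 by 0.39 (SE 0.09, adjusted p = 0.0106). Others of this kind did not pass, with Rdx at -0.19 (adjusted p = 0.083), Rab11a at -0.23 (adjusted p = 0.128) and Slc9a3r1 at 0.10 (adjusted p = 0.236). Between the sexes Slco1a1 was higher in C57BL/6J males by 1.77 (adjusted p = 0.0251) and Slco1a4 was lower in KK males by 1.58 (adjusted p = 0.00493).

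Of 10 sterol and HDL partners, 2 fell and 0 rose in KK (20%). Of 10 peroxisomal partners 3 fell and 1 rose (40%), and of 9 partners in mitochondrial iron-sulphur and haem synthesis 2 rose and 1 fell (33.3%). These shares stand beside 11.7% of all probe sets, and 22.7% in the fit of only those above the median mean. Each call is a large part of so short a list. Markers of other liver cells moved with strain too, and the counts that follow stand beside the same 11.7%. Of the 9 Kupffer cell and macrophage markers 3 were called lower in KK over both sexes, with a median difference of -0.31, which was 0.01 among females and -0.63 among males, at the levels given above. Of 10 stellate cell and pericyte markers 2 were lower and 1 higher, with means between 6.70 and 7.27 on every array. Of the 9 sinusoidal endothelial markers 3 were called lower, with a median of -0.09 and means of 8.52 to 8.67 in C57BL/6J females, 8.25 to 8.38 in C57BL/6J males, 8.18 to 8.59 in KK females and 8.06 to 8.23 in KK males. The part of these cells in the strain differences above was not tested.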

How the data were processed

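Per the submitters' processing notes, the authors made the values with RMA and the affy package. Their versions are not given in the sources used here. Those deposited log2 expression values were used as they stand. Scanner files and single probes were not analysed here. A limma 3.58.1 model (R 4.3.3; lmFit, then eBayes) gave each of the 4 groups its mean, over 12 arrays and 21212 probe sets, unfiltered. Tests were two-sided, Benjamini-Hochberg adjustment ran over every probe set of a comparison, and a gene was called at an adjusted p under 0.05. SE are those of the fit. The scripts were tested on simulated data. Precision is limited by 3 arrays per group. The labels give no batch.

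Any member could be named. The value of every mouse is given for members called with at least a 1.5-fold difference and for the canalicular exporters, and other genes with values only where called among regulators and transport partners. Members and lists were chosen with earlier results of these data known. Named later, after their values were seen, were Tap1, Tap2, Nr1h4, Nr1h3, Ppara, Rdx, Rab11a, Slc9a3r1, Alas2 and Vsig4.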

Additional observations from a re-analysis of the deposited data

How the results depend on the processing

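Of 43 differences of single genes, 26 kept their call under every alternative, and none turned its direction; of 886 gene and alternative pairs, 782 kept the call. The counts of called members kept within 1.5 times the reported count in 212 of 248 cases. The exceptions were these. Higher in KK over both sexes: 7 with the interquartile range as a covariate, and 2 to 5 with 1 array left out. Higher in KK females: 3 with only probe sets above the median mean, a fit that does not hold Abca9 and Abcb1b, 2 with only the groups compared, and 2 to 5 with 1 array left out. Higher in KK males: 2 with array weights. Higher in C57BL/6J males than females: 1 with an intensity trend and robust prior, and 1 to 2 with 1 array left out. Lower in C57BL/6J males: 5 with array weights. Higher in KK males than females: 2 after quantile normalization, with array weights or with the interquartile range as a covariate, 0 with only the groups compared, and 0 to 1 with 1 array left out. Lower in KK males: 12 with array weights, 2 with only the groups compared, and 1 to 6 with 1 array left out. Apart from the members not held in a fit, the cause was not tested. With the replicate number as a block, 5 members were higher and 9 lower over both sexes, 6 and 6 in females, 1 and 7 in males, 2 and 3 between the sexes of C57BL/6J, 1 and 5 in KK, and 0 for the interaction. The arrays were taken as unpaired because not every same-numbered pair's deviations correlated above 0.1: they spanned -0.356 to 0.477, with means of -0.053, 0.242 and 0.273 for numbers 1, 2 and 3. Their overall mean was 0.154, against -0.077 for unlike numbers, and 8 of 12 arrays correlated best with their own number, a hint from the data, not the design. The comparison over both sexes already uses all groups, so no fit of fewer groups was made for it. Members near the background level, and genes without a probe set of 1 symbol, limit what can be said of low transcripts.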
